A study of Mus musculus with 15 samples.

Results

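The enzymes and helpers of triglyceride synthesis described here are 8 genes: Pck1, Gpd1, Gpam, Agpat2, Lpin1, Mogat1, Dgat1 and Dgat2. They were chosen by name, as the probe sets whose single annotated symbol is 1 of the 8, out of 19938 named genes on the array. Each of the 8 had 1 such probe set, so none had to be chosen among several. RNA came from the gonadal white fat of male C57BL6/J mice that carried either the wild-type Sfrp5 gene (7 mice) or the Sfrp5 KO (Q27Stop) allele, a premature stop codon in the gene of a secreted Wnt-binding protein (8 mice). Mice of both genotypes ate a high-fat diet for 8 weeks from 4 weeks of age and were 12 weeks old at sampling. Each mouse gave 1 Affymetrix array, read here as log2 values made by RMA, so a difference of 1 is a doubling of signal. The allele is not described as limited to any cell type, and the RNA is that of the whole depot, so fewer cells of a type and less RNA per cell cannot be told apart.

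White adipocytes store fatty acids as triglyceride in a lipid droplet. The glycerol backbone enters as glycerol 3-phosphate, made from glycolytic dihydroxyacetone phosphate by glycerol-3-phosphate dehydrogenase or, when glucose is scarce, by glyceroneogenesis, whose controlling enzyme is phosphoenolpyruvate carboxykinase. Acyltransferases then add fatty acids to give phosphatidic acid, a lipin phosphatase removes the phosphate to leave diacylglycerol, and a diacylglycerol acyltransferase adds the last fatty acid. Monoacylglycerol acyltransferases reach diacylglycerol by another route.

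The stretches upstream of Pck1 and Mogat1 are shown because these genes varied most between mice among the 8, and those of Gpam because it had the highest correlation with Pck1, as given below. In all 5 of the 8 genes matched that table (GRCm38.p6), Gpam with 2 start sites; Dgat1, Dgat2 and Gpd1 were not matched. Each run is the 250 bases before an annotated start, written 5′ to 3′ on the gene's strand, and capitals mark every match to the motifs searched on both strands. The runs lie at chr2:173152823-173153072 on the plus strand for Pck1, at chr1:78510810-78511059 on the plus strand for Mogat1, and on the minus strand at chr19:55127239-55127488 and chr19:55099478-55099727 for Gpam.
Pck1: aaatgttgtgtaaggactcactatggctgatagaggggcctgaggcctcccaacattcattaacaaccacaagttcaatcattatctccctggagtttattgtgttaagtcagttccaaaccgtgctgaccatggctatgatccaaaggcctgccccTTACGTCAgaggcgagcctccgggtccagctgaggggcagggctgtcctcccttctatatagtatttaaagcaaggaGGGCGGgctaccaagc
Mogat1: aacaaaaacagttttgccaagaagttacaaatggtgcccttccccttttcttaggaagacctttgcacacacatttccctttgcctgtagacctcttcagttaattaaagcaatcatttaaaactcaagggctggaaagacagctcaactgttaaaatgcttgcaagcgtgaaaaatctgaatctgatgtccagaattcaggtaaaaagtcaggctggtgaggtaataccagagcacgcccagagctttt
Gpam, upstream start: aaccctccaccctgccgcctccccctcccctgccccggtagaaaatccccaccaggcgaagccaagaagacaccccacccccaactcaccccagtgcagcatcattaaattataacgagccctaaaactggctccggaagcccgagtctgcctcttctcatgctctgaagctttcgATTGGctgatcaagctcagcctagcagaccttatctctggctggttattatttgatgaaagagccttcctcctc
Gpam, downstream start: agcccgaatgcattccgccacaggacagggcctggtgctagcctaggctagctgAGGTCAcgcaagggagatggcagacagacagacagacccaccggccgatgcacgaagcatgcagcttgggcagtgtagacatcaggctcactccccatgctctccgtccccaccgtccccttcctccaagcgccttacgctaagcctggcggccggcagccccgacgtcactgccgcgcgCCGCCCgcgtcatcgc

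The 7 motifs were the cAMP response elements TTACGTCA and TGACGTCA, the box named for its letters CCAAT, the GC box spelled GGGCGG, the E-box spelled CACGTG, the core promoter element spelled TATAAA, and the half-site of nuclear receptors spelled AGGTCA. The Pck1 stretch held TTACGTCA on the plus strand at positions -93 to -86, counted from the start, and GGGCGG at -16 to -11. TTACGTCA was found in 0.447% of 32851 promoter stretches of the same length, whereas GGGCGG was found in 32.7%. The cAMP response element of Pck1 is a textbook site through which fasting hormones induce the gene in liver. Upstream of Gpam, CCAAT lay on the minus strand at -74 to -70 from the upstream start (33.8% of stretches hold it). The downstream start of Gpam had AGGTCA at -196 to -191 (14% of stretches) and GGGCGG, on the minus strand, at -16 to -11. None of the 7 motifs was present in the Mogat1 stretch, which had 41.2% G and C against 50.8% for Pck1 and 54.8% and 66.0% for the 2 starts of Gpam. No motif was shared by the stretches of all 3 genes. The Lpin1 stretch held AGGTCA at -74 to -69, and the Agpat2 stretch held 2 GC boxes that overlap by a base, at -42 to -37 and -37 to -32.

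The arrays agreed closely in overall distribution, with medians of 6.99 to 7.07, and any 2 of them correlated at 0.963 to 0.987 over all probe sets. Sfrp5, the targeted gene, read 7.66 to 8.33 in wild-type and 6.02 to 7.12 in knockout arrays, a difference of -1.23 (SE 0.16, limma adjusted p = 0.0200) on the log2 scale. Its adjusted p lay between 0.0501 and 0.067 when a single array among wild-type replicates 2, 3, 4 and 5 was dropped, and likewise for knockout replicates 2, 5 and 8. Defining genes of adipocytes were bright in both genotypes, with Fabp4, a fatty acid binding protein, at 13.09 ± 0.07 (SD, n = 7) and 13.14 ± 0.09 (SD, n = 8), and the gene of adiponectin, Adipoq, at 12.52 ± 0.12 and 12.70 ± 0.09 in the same order. Knockout replicate 2 stood apart in epididymis and testis genes, with a list mean of 10.58 against 6.08 to 7.58 in the 14 other arrays. Knockout replicate 8 stood apart in macrophage genes, at 9.51 against 8.35 to 9.04. In the whole comparison limma called 12 of 35557 probe sets at an adjusted p below 0.05 (0.0337%), 10 higher and 2 lower in the knockout, or 5 higher and 2 lower after median centring of the arrays. At an unadjusted p below 0.05 it listed 3544 probe sets (9.97%).

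Loss of Sfrp5 was accompanied by no called change in any of the 8 genes. At an adjusted p below 0.05 in limma, 0 of 8 passed, with adjusted p between 0.443 and 0.983. An unadjusted p below 0.05 was found for 1 of 8, Agpat2. On that side, higher in the knockout, 4.94% of all probe sets and 458 of 19938 named genes were listed. In each of the 8 the ranges of the genotypes overlapped; ranges were separate for 0.217% of all probe sets. The difference lay above 0 in 5 of 8 genes and in 44.8% of named genes, and the median was 0.06 against -0.01 over all named genes. The count above 0 was 3 without wild-type replicate 7 and 8 without knockout replicates 7 and 8, so the direction of the small differences turned on a few arrays. The 95% intervals of the folds, knockout over wild type, stayed within 0.631 and 1.40 for all 8 genes. They were narrowest for Dgat1 (0.877 to 1.12) and widest for Pck1 (0.631 to 1.30), so a difference of 2-fold lay outside every one of them.

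**Figure D1:**
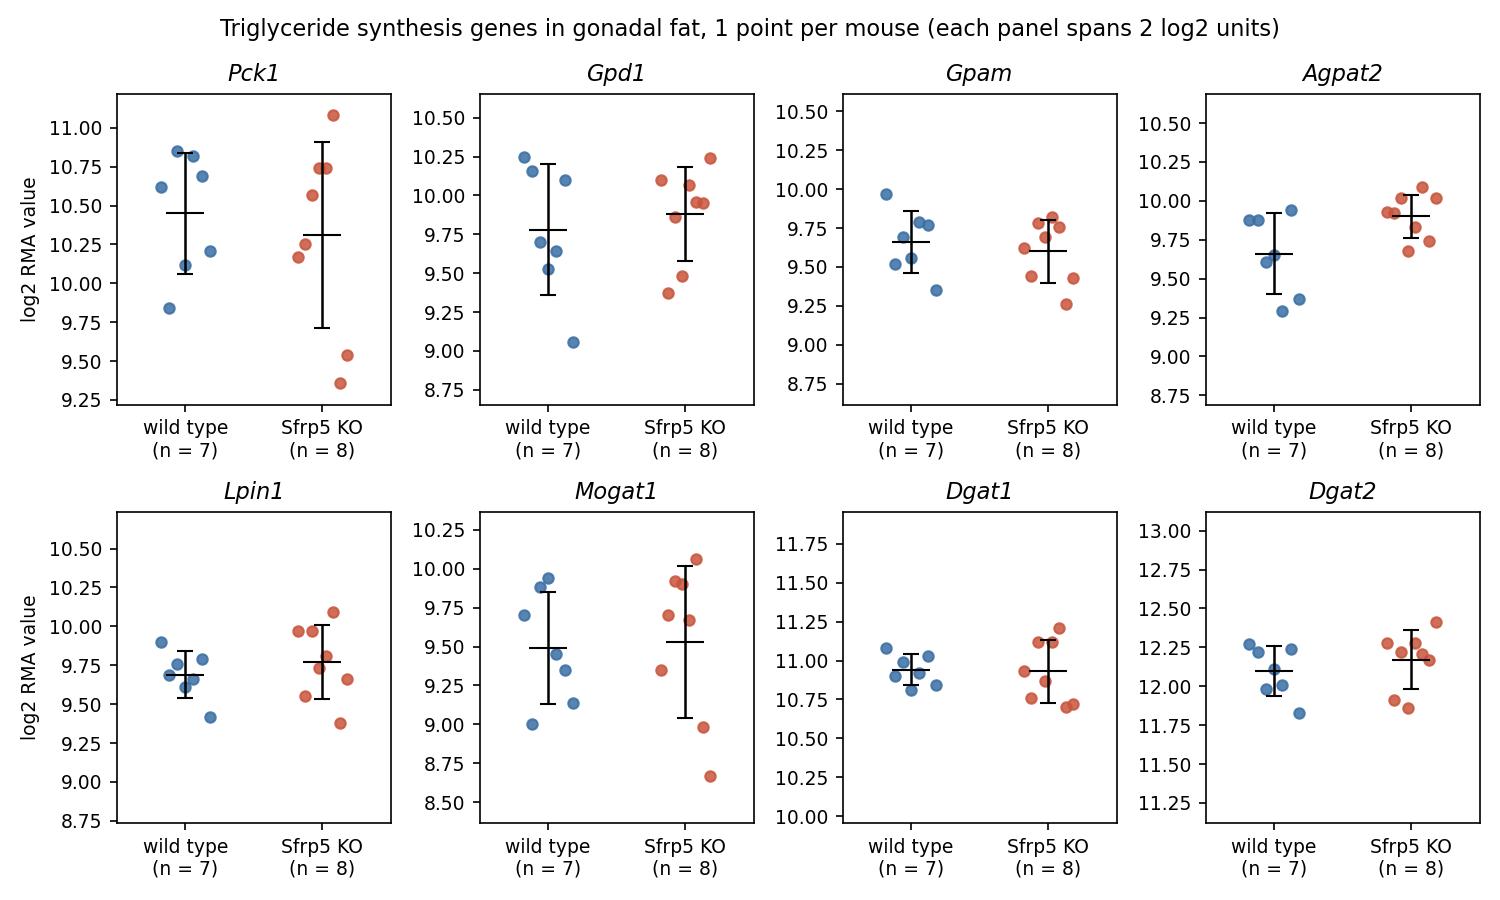
The log2 RMA value of each of the 8 genes is plotted for 7 wild-type (blue) and 8 Sfrp5 knockout mice (red), 1 point per mouse in replicate order, with bars for the mean and SD and the same span of 2 log2 units in every panel. The genotypes overlap in each panel, and Pck1, Mogat1 and Gpd1 spread most widely, with SDs of 0.50, 0.42 and 0.35 over the 15 mice.

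Pck1 encodes the cytosolic phosphoenolpyruvate carboxykinase, which in fat supplies glyceroneogenesis. Its probe set (10479047, chromosome 2) ranged in wild-type mice from 9.84 to 10.85 with a median of 10.62. In knockout mice it ranged from 9.36 to 11.08 with a median of 10.41. The knockout group thus held both the highest value, in replicate 6, and the lowest values of the series, 9.36 in replicate 7 and 9.54 in replicate 8. The means were 10.45 ± 0.39 (SD, n = 7) and 10.31 ± 0.60 (SD, n = 8), and the difference of -0.14 (SE 0.25) was smaller than the spread in either group (limma adjusted p = 0.902). Between the lowest and the highest mouse the signal differed 3.28-fold, and the SD over 15 mice exceeded that of 97.0% of named genes. With knockout replicates 7 and 8 left out the difference was 0.14 (SE 0.19, limma adjusted p = 0.880), and those 2 alone, set against wild type, gave -0.99 (SE 0.26, limma adjusted p = 0.364). As these 2 arrays hold the lowest values, the direction of both shifts followed from the choice of arrays.

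Gpd1 encodes the cytosolic glycerol-3-phosphate dehydrogenase, the step from glycolysis to the glycerol backbone. It read 9.06 to 10.25 in wild-type mice (median 9.70) and 9.37 to 10.24 in knockout mice (median 9.96). The lowest mouse was wild-type replicate 7, and the values near the top came from both genotypes. The difference was 0.10 (SE 0.18, limma adjusted p = 0.904), and 6 of 8 knockout arrays exceeded the average wild type; it was -0.02 (SE 0.15) without wild-type replicate 7. Mice differed up to 2.28-fold in Gpd1 signal.

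Gpam encodes the mitochondrial glycerol-3-phosphate acyltransferase, which adds the first fatty acid. Wild-type mice read 9.35 to 9.97 (median 9.69) and knockout mice 9.26 to 9.82 (median 9.66), an almost complete overlap. The difference was -0.06 (SE 0.10, limma adjusted p = 0.893). Gpam lies on chromosome 19, which also carries Sfrp5, with 107 protein-coding genes between them in the RefSeq order. Acsl5, an acyl-CoA synthetase that activates fatty acids, is a near neighbour of Gpam, with Tectb and Gucy2g as the 2 protein-coding genes in between. Acsl5 read 9.67 ± 0.10 (SD, n = 7) and 9.51 ± 0.14 (SD, n = 8), a difference of -0.17 (SE 0.07) that did not pass (limma adjusted p = 0.408). For genes of this chromosome, the Sfrp5 allele and variants inherited with it cannot be told apart.

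Agpat2 encodes the acylglycerol-phosphate acyltransferase that adds the second fatty acid, and its loss in humans causes congenital lipodystrophy. It had the lowest p of the 8 genes. Wild-type mice read 9.29 to 9.94 (median 9.65), with replicates 5 and 7 lowest at 9.29 and 9.37. Knockout mice read 9.68 to 10.09 (median 9.93), and 8 of 8 lay above the wild-type mean of 9.66 ± 0.26 (SD, n = 7). The knockout mean was 9.90 ± 0.14 (SD, n = 8). The difference of 0.24 (SE 0.10; 95% interval 0.03 to 0.46, or 1.02-fold to 1.38-fold) had an unadjusted p of 0.0307 and an adjusted p of 0.443 in limma, so it did not pass. The upper part of the wild-type range, with replicates 1, 2 and 6 at 9.88 to 9.94, lay inside the knockout range. The unadjusted p rose above 0.05 without any 1 of wild-type replicates 5 and 7 (0.0758 and 0.0737) and knockout replicates 3, 6 and 8 (0.0531, 0.0589 and 0.0529). The adipocyte list moved the same way, with 9 of 12 measured genes above 0, against 44.8% of named genes, and none passed. Its array means were 11.20 to 11.57 in wild type and 11.28 to 11.63 in the knockout. Mesothelial genes were above 0 for 11 of 11, with 0 called and array means of 7.35 to 8.63 and 7.94 to 8.69. Of them 4 had an unadjusted p below 0.05 in limma, where 458 of 19938 named genes were listed as higher. Over the 15 mice mesothelial level and Agpat2 had r = -0.27 (permutation p = 0.337, adjusted 0.573) and rho = -0.15 (p = 0.596, adjusted 0.817). The r was -0.86 within wild type, -0.27 within the knockout and -0.70 as deviations from the genotype means (permutation, adjusted p = 0.033). With the adipocyte list mean Agpat2 had r = 0.54 over the 15 mice (permutation p = 0.0367, adjusted 0.136). The parts of adipocyte and mesothelial share in the Agpat2 difference were not tested.

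Lpin1 encodes lipin 1, the phosphatidate phosphatase that also acts as a coactivator in the nucleus. It read 9.42 to 9.90 in wild type (median 9.69) and 9.38 to 10.09 in the knockout (median 9.77). Values of 9.97 or more occurred in knockout replicates 1, 3 and 6, while replicate 7 of each genotype was its group's lowest. The difference was 0.08 (SE 0.10, limma adjusted p = 0.865).

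Mogat1 encodes a monoacylglycerol acyltransferase of the same protein family as Dgat2. Its values ran from 9.0 to 9.94 among wild types (median 9.45), and the knockouts spanned 8.67 to 10.06 (median 9.68). The lowest mice were knockout replicates 8 and 7, at 8.67 and 8.98, followed by wild-type replicate 2 at 9.0. The group means lay 0.04 apart (SE 0.21, limma adjusted p = 0.972), and dropping a single array turned the sign for 5 of the 15 arrays. Its SD over 15 mice, 0.42, exceeded that of 95.7% of named genes. Against wild type, knockout replicates 7 and 8 alone gave -0.67 (SE 0.24, limma adjusted p = 0.454), and without them the difference was 0.27 (SE 0.16, limma adjusted p = 0.705). Here too the direction of both shifts followed from the choice of the lowest arrays.

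Dgat1 and Dgat2 encode unrelated enzymes that catalyse the same last step. Dgat1 read 10.81 to 11.08 in wild type (median 10.92) and 10.70 to 11.21 in the knockout (median 10.90), so the knockout values enclosed the wild-type ones. Its difference of -0.01 (SE 0.08, limma adjusted p = 0.983) was the smallest of the 8. Dgat2 read 11.83 to 12.27 in wild type (median 12.11) and 11.86 to 12.41 in the knockout (median 12.22), with the highest value in knockout replicate 8. Its difference was 0.07 (SE 0.09, limma adjusted p = 0.859). The interval of the fold was 0.920 to 1.2 for Dgat2.

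Other genes of the pathway were read from a fixed list. Of 25 genes for the remaining acyltransferases, lipins, phospholipid phosphatases, acyl-CoA synthetases and droplet-forming proteins 23 were measured, and 0 passed the adjusted threshold in limma; 7 lay above and 16 below 0 (30.4% above, against 44.8% of named genes), with a median of -0.02. On the lower side 5.03% of all probe sets and 875 of 19938 named genes had an unadjusted p below 0.05 in limma. In this list there were 0 higher and 3 lower. These 3 were Acsl5, Plpp2, a phospholipid phosphatase, at -0.15 (SE 0.07, limma adjusted p = 0.466), and Fitm1, a protein of droplet formation, at -0.20 (SE 0.09, limma adjusted p = 0.499). Fitm1 is chiefly a muscle gene, and it averaged 5.79 ± 0.10 (SD, 7 wild types) and 5.58 ± 0.23 (SD, 8 knockouts). The second glycerol-3-phosphate acyltransferase of adipocytes, Gpat3, differed by 0.04 (SE 0.10), seipin, Bscl2, by 0.06 (SE 0.10) and Lpin2 by 0.15 (SE 0.10).

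Among 13 measured genes, of 15 listed, that supply glycerol, glycerol 3-phosphate or the substrates of glyceroneogenesis 0 passed in limma (0 at an unadjusted p below 0.05), 5 lay above and 8 below 0, and the median was -0.02. The lowest p-values belonged to Got1, a cytosolic aminotransferase, at 0.14 (SE 0.10), Gk5, a glycerol kinase relative, at -0.14 (SE 0.10), and Aqp7, the glycerol channel of adipocytes, at -0.13 (SE 0.12). Mitochondrial Pck2 differed by 0.02 (SE 0.06). Of 17 transcription regulators 0 passed in limma, and 9 lay above and 8 below 0. On the lower side 875 of 19938 named genes had an unadjusted p below 0.05 in limma, and so did 1 of the 17. That gene was Scap, the escort of SREBP proteins, which read 8.40 ± 0.13 (SD, n = 7) and 8.25 ± 0.08 (SD, n = 8), a difference of -0.16 (SE 0.06, limma adjusted p = 0.410), and 0 of 8 knockout arrays exceeded the average wild type. Cebpa, an adipocyte transcription factor, differed by 0.10 (SE 0.05, limma adjusted p = 0.552), and 8 of 8 knockout arrays exceeded the average wild type. The coactivator Ppargc1b differed by 0.13 (SE 0.09, limma adjusted p = 0.672). Pparg, the main inducer of these genes in fat, differed by -0.07 (SE 0.07) and Srebf1, an inducer of lipogenic genes, by 0.06 (SE 0.07).

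**Figure D2:**
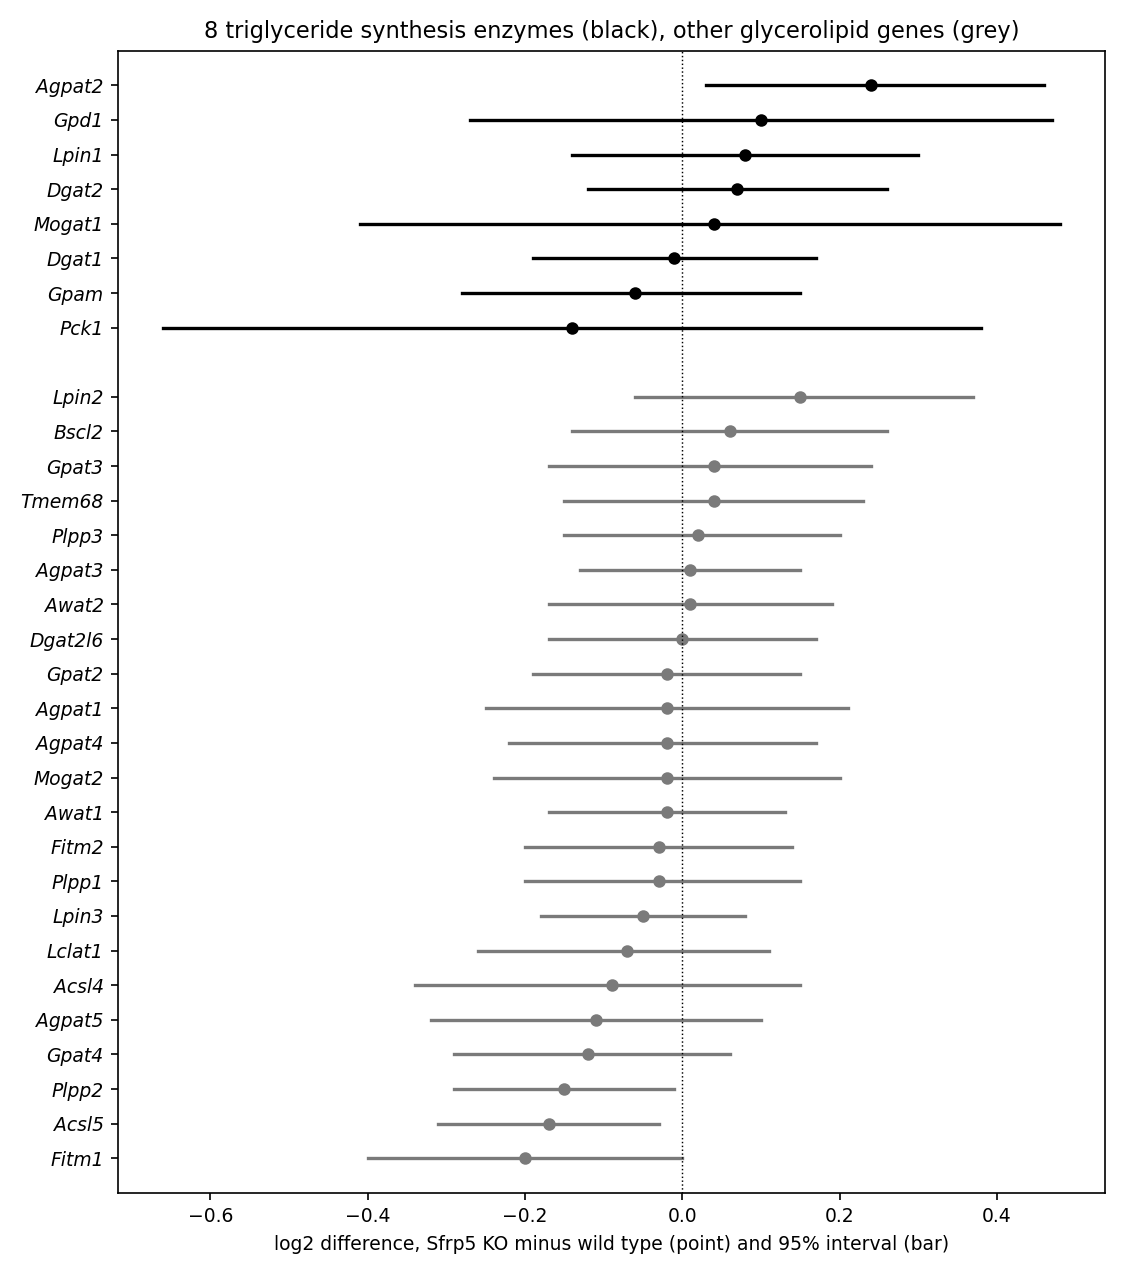
The log2 difference, Sfrp5 knockout minus wild type, is plotted as a point with its 95% interval as a bar for the 8 triglyceride synthesis genes (black) and 23 other glycerolipid genes (grey). Of the 8, Agpat2 at 0.24 has an interval (0.03 to 0.46) above 0, and among the others the points of Plpp2, Acsl5 and Fitm1 lie lowest, at -0.15, -0.17 and -0.20.

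For 7 of the 8 genes the SD over the 15 mice was larger than the difference between genotypes, Agpat2 being the exception at 0.23 against 0.24, and several of the genes moved together. All 28 pairs were correlated over the 15 mice; both values of a pair come from the same array, and p-values are from two-sided permutation tests adjusted by Benjamini-Hochberg over the 28. By Pearson's r 12 pairs passed an adjusted p of 0.05, all of them positive and positive within both genotypes, and 6 of the 12 also passed by Spearman's rho. Each r was repeated without the 2 mice farthest from the median of 1 gene of the pair, the first named unless another is given, so the mice left out differ from pair to pair.

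Gpd1 and Dgat2 formed the tightest pair. Pearson's r was 0.93 and rho 0.90, each with permutation p = 1e-05, the smallest that 100000 resamples can give (adjusted p = 0.00028 for both). It was 0.93 within the 7 wild-type mice, 0.97 within the 8 knockout mice and 0.90 without the 2 mice farthest from the median of Dgat2. Wild-type replicate 7 was lowest in both genes (9.06 for Gpd1 and 11.83 for Dgat2), and knockout replicates 2 and 4 came next in both. Agpat2 joined this pair more loosely, with r = 0.68 with Dgat2 (permutation p = 0.00553, adjusted 0.0194; rho 0.61, p = 0.0172, adjusted 0.0546) and r = 0.65 with Gpd1 (permutation p = 0.00901, adjusted 0.0280; rho 0.55, p = 0.0368, adjusted 0.103). Without the 2 mice farthest from the median of Agpat2 these values were 0.58 and 0.49. Within wild type they were 0.88 and 0.83 and within the knockout 0.53 and 0.38.

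Gpam, Dgat1, Lpin1 and Pck1 were positively correlated in each of their 6 pairs. Lpin1 and Dgat1 correlated at r = 0.83 (permutation p = 0.0001, adjusted 0.0014) and rho = 0.89 (p = 2e-05, adjusted 0.00028), with 0.87 within wild type, 0.86 within the knockout and 0.72 without the 2 farthest mice. Gpam and Dgat1 correlated at r = 0.83 (permutation p = 0.00023, adjusted 0.00182) and rho = 0.82 (p = 0.00032, adjusted 0.00299), with 0.83, 0.90 and 0.81 in the same order. For Gpam and Pck1 r was 0.81 (permutation p = 0.00026, adjusted 0.00182) and rho 0.70 (p = 0.00555, adjusted 0.0295), with 0.69, 0.90 and 0.77 in that order. Dgat1 with Pck1 gave r = 0.79 (permutation p = 0.00045, adjusted 0.00252) and rho = 0.69 (p = 0.00633, adjusted 0.0295), and Gpam with Lpin1 gave r = 0.77 (permutation p = 0.00069, adjusted 0.00322) and rho = 0.70 (p = 0.00507, adjusted 0.0295). Without the 2 farthest mice the last pairs gave 0.68 and 0.59. Lpin1 with Pck1 reached r = 0.62 (permutation p = 0.0149, adjusted 0.0419), rho 0.50 (p = 0.0579, adjusted 0.116) and 0.33 without the 2 farthest mice, so that relation rested largely on those mice.

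Mogat1 followed Pck1. Their r was 0.77 (permutation p = 0.00102, adjusted 0.00408) and rho 0.63 (p = 0.0138, adjusted 0.0546), with 0.93 within the knockout, 0.45 within wild type and 0.59 without the 2 mice farthest from the median of Mogat1. Without those 2 mice, knockout replicates 7 and 8, the pair did not pass (permutation, adjusted p = 0.0672, and rho 0.44, adjusted 0.224). Leaving out wild-type replicate 2 and knockout replicate 8 gave 0.64 (permutation, adjusted p = 0.0532), and 0.07 within the remaining wild types. The r of Mogat1 with Gpam was 0.60 (permutation p = 0.018, adjusted 0.0459) and with Dgat1 0.59 (permutation p = 0.0212, adjusted 0.0494), with rho of 0.51 and 0.53 (p = 0.0529 and 0.0455, adjusted 0.114 for both), and 0.46 and 0.43 without the 2 mice farthest from the median of Gpam and of Dgat1. Without knockout replicates 7 and 8, the mice farthest from the median of Mogat1, they were 0.41 and 0.35 (permutation, adjusted p = 0.239 and 0.318).

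The 2 enzymes of the last step, Dgat1 and Dgat2, correlated at r = 0.27 over the 15 mice (permutation p = 0.339, adjusted 0.432) and rho = 0.30 (p = 0.285, adjusted 0.380), but this rested on few arrays. It was 0.53 within wild type and 0.20 within the knockout, 0.55 without wild-type replicate 2 and knockout replicate 8 (permutation, adjusted p = 0.0836), and 0.65 without knockout replicates 7 and 8, where it passed (permutation, adjusted p = 0.0421). Leaving out knockout replicates 7 and 8 also brought Lpin1 with Gpd1 to 0.73 and Lpin1 with Dgat2 to 0.72 (permutation, adjusted p = 0.0319 for both), from 0.51 and 0.47 over all mice. Gpam with Gpd1 came to 0.67 and Dgat1 with Gpd1 to 0.64 (permutation, adjusted p = 0.0372 and 0.0421), from 0.35 and 0.32, and Agpat2 with Lpin1 came to 0.70 (adjusted p = 0.0319), from 0.57. Gpam with Dgat2 came to 0.57 and did not pass (permutation, adjusted p = 0.072). By Pearson's r Gpd1 and Dgat2 thus stood less apart from Lpin1, Gpam and Dgat1 in the other 13 mice. By rho none of these pairs passed there. The adjusted permutation p of rho was 0.0565 for Agpat2 with Lpin1 and 0.0911 to 0.152 for the others. The 2 mice were chosen for leaving out after their values were seen. Within wild type Lpin1 had r = 0.88 with Gpd1 and 0.78 with Dgat2. The sources of the backbone, Pck1 and Gpd1, had r = -0.13 (permutation p = 0.646, adjusted 0.696) and rho = -0.19 (p = 0.498, adjusted 0.558), and 0.13 without knockout replicates 7 and 8. Knockout replicate 8 held the highest Dgat2 value of the series (12.41) and the next-to-highest Gpd1 value (10.24) beside the lowest Mogat1 (8.67) and the next-to-lowest Pck1 (9.54). That a pair passed and another did not was not tested as a difference between the pairs.

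**Figure D3:**
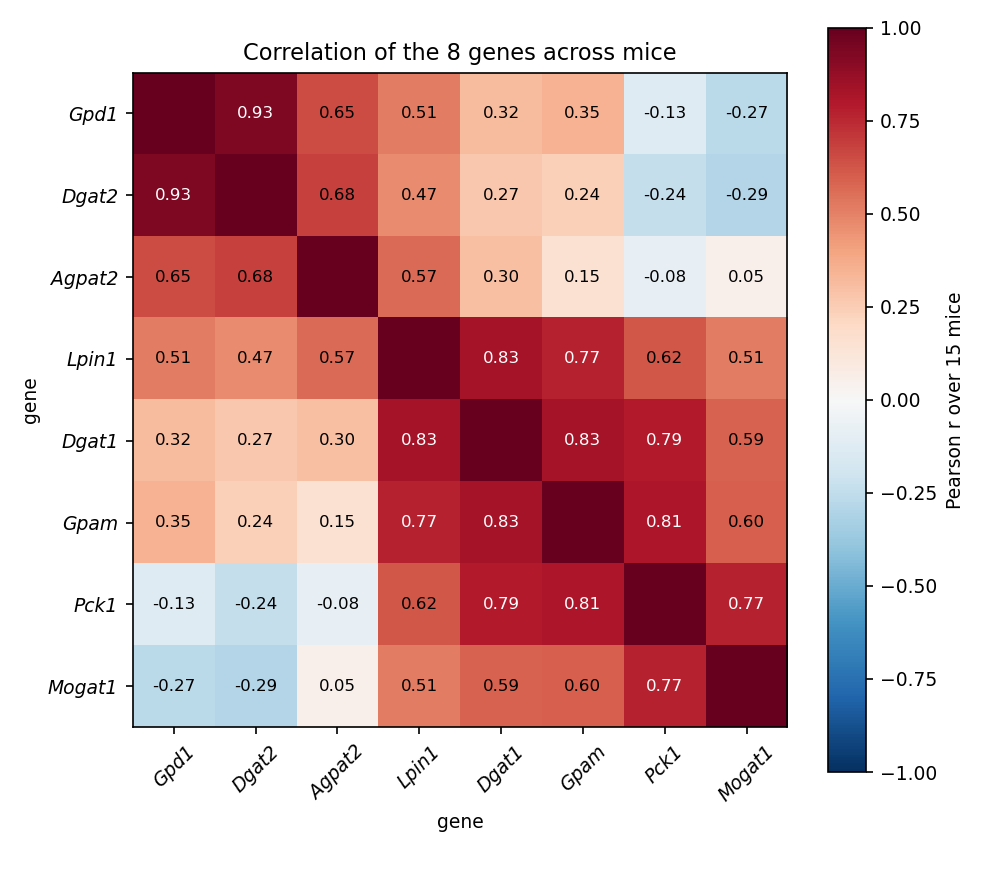
Pearson's r over the 15 mice is given for each pair of the 8 genes, coloured from -1 (blue) to 1 (red). Gpd1 and Dgat2 stand at 0.93 in the upper left corner, Lpin1, Dgat1, Gpam and Pck1 have 0.62 to 0.83 among them, and the values between Gpd1 or Dgat2 and Pck1 or Mogat1 run from -0.29 to -0.13. Dgat1 with Dgat2, at 0.27 here, is 0.65 without knockout replicates 7 and 8 and 0.30 without the 2 mice farthest from the median of Dgat1.

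Levels of cell type markers moved with several of the 8 genes across mice. Each gene was set against the array mean of 6 marker lists, 48 relations adjusted together, of which 5 passed by Pearson's r; the 2 mice left out are those farthest from the median of the list mean. The mean of 12 adipocyte genes, which hold none of the 8, correlated with Lpin1 at r = 0.87 (permutation p = 4e-05, adjusted 0.00192) and rho = 0.90 (p = 3e-05, adjusted 0.0012), with Dgat1 at r = 0.80 (permutation p = 0.00034, adjusted 0.00544) and rho = 0.87 (p = 5e-05, adjusted 0.0012), and with Gpam at r = 0.77 (permutation p = 0.00079, adjusted 0.00948) and rho = 0.74 (p = 0.0026, adjusted 0.0312). Within wild type these were 0.95, 0.85 and 0.88, within the knockout 0.86, 0.87 and 0.76, and without the 2 farthest mice 0.83, 0.88 and 0.69. Gpd1 correlated with it at r = 0.72 (permutation p = 0.0027, adjusted 0.0259) and rho = 0.60 (p = 0.0199, adjusted 0.0919), with 0.81 within wild type and 0.62 within the knockout, but at 0.42 without the 2 farthest mice. The rest did not pass. Dgat2 was near the threshold at r = 0.66 (permutation p = 0.00789, adjusted 0.0541). It passed with median centring (r = 0.74, permutation, adjusted p = 0.0176) but not with quantile normalization (0.59, 0.106). Agpat2 had r = 0.54 (permutation p = 0.0367, adjusted 0.136) and Pck1 0.53 (permutation p = 0.0442, adjusted 0.141). For Mogat1 the value was 0.34 (permutation p = 0.213, adjusted 0.464) and rho 0.32 (p = 0.248, adjusted 0.518). How much of these relations reflects the share of adipocytes in a sample was not tested.

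Macrophage genes moved against Mogat1. The mean of 20 macrophage genes spanned 8.44 to 9.04 among the wild types and 8.35 to 9.51 among the knockouts, and its correlation with Mogat1 was r = -0.82 (permutation p = 0.00012, adjusted 0.00288) and rho = -0.76 (p = 0.00167, adjusted 0.0267). It was -0.80 within wild type, -0.86 within the knockout and -0.65 without the 2 mice of the highest macrophage level, knockout replicate 8 and wild-type replicate 2, where the adjusted permutation p was 0.138. Pck1 had r = -0.64 (permutation p = 0.00979, adjusted 0.0587) and rho = -0.50 (p = 0.0603, adjusted 0.186), and -0.38 without those 2 mice, so its relation rested on them. Dgat2 ran the other way, at r = 0.65 (permutation p = 0.00655, adjusted 0.0524) and rho = 0.64 (p = 0.0128, adjusted 0.0919). Its r was 0.32 within wild type, 0.78 within the knockout and 0.55 without those 2 mice. Neither of the last 2 relations passed as measured, but both were near the threshold. Pck1 passed with quantile normalization (r = -0.68, permutation, adjusted p = 0.0488), without wild-type replicate 4 and knockout replicate 2 (-0.77, 0.026) and as deviations from the genotype means (-0.63, 0.0454). With median centring it did not pass (-0.57, 0.0942). Dgat2 passed with median centring (r = 0.68, permutation, adjusted p = 0.022) and as deviations (0.63, 0.0454). It did not pass with quantile normalization (0.60, 0.106) or without wild-type replicate 4 and knockout replicate 2 (0.61, 0.141).

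**Figure D4:**
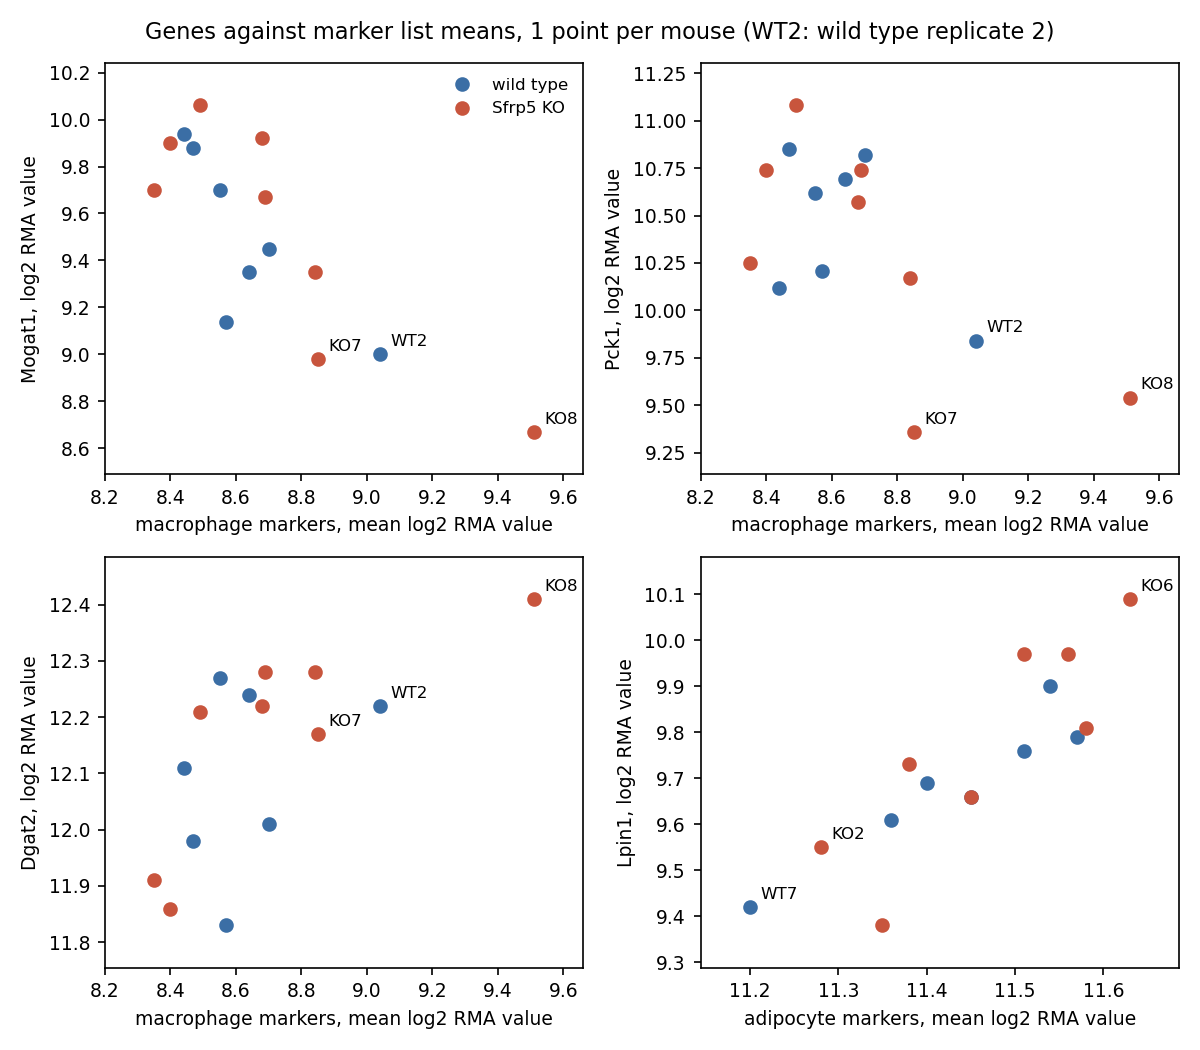
Each point is 1 mouse, wild type in blue and Sfrp5 knockout in red, with the mean log2 RMA value of a marker list on the x axis and the log2 RMA value of a gene on the y axis. Mogat1 and Pck1 are lowest in knockout replicates 7 and 8 and wild-type replicate 2 (KO7, KO8, WT2), while Dgat2 is highest in KO8 (12.41) and Lpin1 follows the adipocyte mean at r = 0.87.

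Endothelial genes were lower in the knockout for 10 of 11, with 0 called. Fibroblast and progenitor genes were above 0 for 8 of 10, with 0 called. Of all named genes 44.8% lay above 0. None of the 32 relations of the 8 genes with the mesothelial, fibroblast, endothelial and epididymis lists passed after adjustment. The nearest was Dgat2 with fibroblast genes at r = 0.63 (permutation p = 0.0113, adjusted 0.0605) and rho = 0.60 (p = 0.0211, adjusted 0.0919). It passed with median centring (r = 0.69, permutation, adjusted p = 0.022) but not with quantile normalization (0.52, 0.17). As deviations from the genotype means 3 of the 32 passed: mesothelial genes with Agpat2 (r = -0.70) and with Gpd1 (r = -0.69; permutation, adjusted p = 0.033 for both), and endothelial genes with Gpd1 (r = 0.65, adjusted p = 0.0454). The list mean of kidney and liver genes, markers of organs rich in Pck1, stayed between 6.22 and 6.54 in all arrays. That of skeletal muscle genes stayed between 6.66 and 7.0. Single genes could range more widely, such as Alb from 6.70 to 7.74 and Acta1 from 7.68 to 9.43.

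The genes most alike to each of the 8 over the 15 arrays were ranked by Pearson's r among 18575 other named genes, as a description. For Pck1 they were Sik2, a salt-inducible kinase (r = 0.98), and Fmo5, a flavin monooxygenase (0.96). For Mogat1 they were Gsta3, a glutathione transferase (0.96), and Suclg2, a subunit of succinyl-CoA ligase (0.92). Gpd1 was most like Ap1s1, an adaptor subunit of clathrin coats (0.97), and Cltb, a clathrin light chain (0.94), with Dgat2 in the 9th place. Dgat2 was most like Fam98a (0.97) and Col15a1, a collagen (0.94), with Gpd1 in the 3rd place. Dgat1 was most like Bckdhb, a subunit of branched-chain keto acid dehydrogenase (0.93), and Utrn, utrophin (0.93). Gpam was most like Ogdh of the tricarboxylic acid cycle (0.92) and the Golgi protein gene Golgb1 (0.92). Lpin1 was most like Ech1, an enzyme of fatty acid oxidation (0.89), and Fn3krp (0.88), with Dgat1 in the 19th place. Agpat2 was most like Tmed2, a cargo receptor between endoplasmic reticulum and Golgi (0.87), and Prmt1, an arginine methyltransferase (0.86). These are the highest of 18575 values for each gene, so the names carry no test.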

How the data were processed

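Transcript levels in gonadal fat of 15 mice were read from the deposited log2 expression values, 35557 probe sets per array, produced by the authors with RMA according to the submitters' processing notes, whose tool list further holds affy 1.18, limma and Expression Console 1.1.2800.19935. Since RMA evens out the distributions of arrays processed together, a general rise or fall of transcripts cannot be read from these values. Whether the 15 arrays were processed together is not stated. Scanner files were not used here, so detection per probe was not assessed, and the number of arrays limits the precision. Genotype and replicate number come from the sample titles. Of the probe sets 21789 have 1 gene symbol, 1621 several and 12147 none; 21698 were given current RefSeq symbols (GRCm38.p6). A gene was read from its brightest probe set.

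The genotype test was limma's moderated fit (version 3.58.1, R 4.3.3; two-sided, no covariate), with Benjamini-Hochberg adjustment across every probe set and a threshold of 0.05; differences are knockout minus wild type, and SEs and 95% intervals are limma's. Correlations used permutation tests with 100000 resamples (Python 3.11.15). Both were tested on simulated data. The 8 genes and the lists were chosen with earlier results of these data known. Genes named are the 8, Sfrp5, the 3 with the lowest p in each pathway list and the 2 most alike to each of the 8. Tectb and Gucy2g are named for their position only. A few pathway and marker genes were chosen after their values were seen (Fabp4, Adipoq, Gpat3, Bscl2, Lpin2, Pck2, Pparg, Srebf1, Alb, Acta1). Alternatives were quantile normalization, median centring, array weights, an intensity trend with robust prior, removal of probe sets below the 33rd percentile in mean signal, fits lacking 1 or more arrays, and a block for replicate number. Figures were drawn with matplotlib 3.10.9.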

Additional observations from a re-analysis of the deposited data

How the results depend on the processing

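The 8 genes gave 0 calls at limma's adjusted threshold in each fit run, and their lowest adjusted p in any fit was 0.3, for Agpat2. The number with an unadjusted p below 0.05, 1 as reported, was 0 with median centring, 0 when wild-type replicate 4 and knockout replicate 2 were both dropped, and 0 to 1 without 1 array. With knockout replicates 7 and 8 as the only knockout arrays it was 3 (Dgat1, Mogat1 and Pck1, each lower), beside 3392 of 35557 probe sets. In each of these 3 genes those 2 arrays hold the 2 lowest values of the series, so the count restates how they read. The number above 0, 5 as reported, was 3 to 6 without 1 array, 3 with knockout replicates 7 and 8 as the only knockout arrays and 8 without them. Signs of uncalled differences turned as follows. Without knockout replicates 7 and 8 Gpam stood at 0.02, Dgat1 at 0.06 and Pck1 at 0.14; with these as the only knockout arrays Lpin1 stood at -0.17 and Mogat1 at -0.67. Dgat1 was 0.01 without wild-type replicate 2 and knockout replicate 8. Without 1 array Dgat1 lay between -0.05 and 0.02, Mogat1 between -0.04 and 0.16 and Gpd1 between -0.02 and 0.18. Agpat2 stayed between 0.18 and 0.29 in the fits without 1 array and between 0.22 and 0.26 in the others. The cause was not tested.

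Over all probe sets limma called 12; the count was 6 with quantile normalization, 7 with median centring (5 higher, 2 lower), 26 after removal of dim probe sets, 25 with array weights, 48 with a trended, robust prior, and 0 to 133 without 1 array (133 without knockout replicate 1; where limma gave 0, 3003 to 3521 had an unadjusted p below 0.05). It was 2 without knockout replicates 7 and 8 and 0 with them as the only knockout arrays (3392 unadjusted). Dropping wild-type replicate 4 with knockout replicate 2 gave 0 (2963), as did wild-type replicate 2 with knockout replicate 8 (3034). Sfrp5 stayed between -1.33 and -0.93 in every fit run, with adjusted p from 0.00413 to 0.316 and no call in the fits that called 0 probe sets.

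With the replicate number as a block limma called 0 probe sets (3098 unadjusted), and Dgat1 stood at 0.02. Arrays of the same number correlated at -0.117 to 0.248 in their deviations from the genotype means, and 1 of 14 correlated best with its own number, so the block pairs arrays that share a number only; no other sign of the 8 genes turned under it.

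Pairs of genes that passed by Pearson's r numbered 12 as reported, 7 without wild-type replicate 2 and knockout replicate 8 and 8 with quantile normalization, all among the 12. There were 12 as deviations, the same pairs, 12 with median centring and 13 on dropping wild-type replicate 4 with knockout replicate 2, each with 11 of the 12, and 14 without knockout replicates 7 and 8, with 8 of the 12. Of relations with marker lists 5 passed as reported, 8 with median centring, 11 as deviations from the genotype means, and 5 in the other settings. The setting without knockout replicates 7 and 8 was chosen for correlations after seeing the data. The mean over a gene's probe sets was not run, since each of the 8 has 1.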

Other observations

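By an unexplained number in the submitters' descriptions, knockout replicates 7 and 8 fall in the range of the wild types and the other 6 knockouts below it. Knockout replicates 7 and 8 read 9.36 and 9.54 for Pck1 against 10.17 to 11.08 in knockout replicates 1 to 6, and 8.98 and 8.67 for Mogat1 against 9.35 to 10.06. For Dgat1 they read 10.70 and 10.72 against 10.76 to 11.21, and for Gpam 9.26 and 9.43 against 9.44 to 9.82. For Gpd1 they read 9.95 and 10.24, within and just above the 9.37 to 10.10 of the other 6. Their macrophage list means were 8.85 and 9.51 against 8.35 to 8.84. These 2 arrays are not a group of the study, and no test was made between them and the rest of the knockouts.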
